A study of Mus musculus with 76 samples.

Results

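The 9 genes described here are markers of B lymphocytes: Ighm, Cd79a, Cd79b, Cd22, Ms4a1, Fcer2a, Blk, Pax5 and Ebf1. They were chosen by name as a list, read by symbol from the whole thymus table and joined to the other tables by gene identifier. All 9 were found, out of 55487 genes listed. The study profiled mouse thymus and lymph node by RNA sequencing in 76 libraries that fall into 26 groups. SOD1 mice carry the SOD1-G93A transgene, a mutant human SOD1 that gives a model of amyotrophic lateral sclerosis, and wild-type (WT) mice are their controls, although the labels name the strain SOD1-G93A for WT libraries too. At day 120 (d120) there were 3 SOD1 and 3 WT libraries each of whole unsorted thymus, whole inguinal lymph node (iLN), and of 4 populations sorted from digested thymus: mTEC and cTEC (medullary and cortical epithelial cells of the thymus), CD4 T cells and Treg, the regulatory T cells. At day 30 (d30) the 4 sorted populations were profiled again, with 3 libraries a group except 2 for WT cTEC and 2 for WT CD4. A further 18 libraries came from Treg cultures of both genotypes labelled T0, T2 and T20, with no unit of time given. Nothing in the labels ties libraries to separate animals, so the p-values measure the spread between these libraries, which may be technical.

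B cells recognise antigen with a membrane immunoglobulin whose IgM heavy chain constant region is encoded by Ighm and whose signals pass through the CD79A and CD79B chains, with BLK among the Src-family kinases that act on them. CD22 restrains that signal, CD20 (Ms4a1) is a membrane protein of mature B cells, and CD23 (Fcer2a) is the low-affinity IgE receptor of resting follicular B cells. EBF1 and PAX5 are the transcription factors that set up and hold B cell identity. Lymph nodes are rich in follicular B cells, the thymus holds a small B cell population mainly in its medulla, and plasma cells keep immunoglobulin transcripts while lowering Pax5, Ms4a1 and Cd22. Some of the 9 are also known outside the lineage: Ebf1 in stromal and fat precursors, and Blk in some gamma delta T cells.

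In the mm10 annotation Cd79a lies on chromosome 7 at 24897381 to 24902197 (plus strand) and Cd22 on the same chromosome at 30865402 to 30880342 (minus). Cd79b is at 106311341 to 106314762 (minus) and Ebf1 at 44617317 to 45008091 (plus) of chromosome 11, Ms4a1 at 11249675 to 11266241 (minus) of chromosome 19, and Pax5 at 44524757 to 44710487 (minus) of chromosome 4. Blk is at 63372836 to 63417037 (minus) of chromosome 14, Fcer2a at 3681737 to 3694175 (minus) of chromosome 8, and Ighm, annotated as an immunoglobulin constant gene, at 113418558 to 113422730 (minus) of chromosome 12. Cd22 shares 479 exonic bases with the antisense gene Gm29439, and Pax5 shares 125 with the antisense gene Gm12462 and 636 with 5730488B01Rik on the other strand; the strand setting of the counting is not given in the sources used here, so these reads cannot be told apart. RefSeq promoter windows of build GRCm38.p6, from 250 bases before to 50 after an annotated start, were held for 5 of the 9 genes, with 8 starts in all. Windows of Cd79a, Cd22 and Fcer2a are printed. These genes were called together in Treg libraries, and Fcer2a, which has more than one start, stood far higher in mTEC than in the other sorted cells. Ebf1 was called in Treg with them, but its windows and the third of Fcer2a, which held none of the motifs searched, are not printed. Capitals mark the letters of 3 motifs searched on both strands: the E-box CAGGTG (in 20.2% of all 32851 windows of this length), the Ets core AGGAAG (in 35.4%) and the EBF palindrome CCCNNGGG (in 13.7%).
Cd79a, chr7:24897247-24897546, plus strand: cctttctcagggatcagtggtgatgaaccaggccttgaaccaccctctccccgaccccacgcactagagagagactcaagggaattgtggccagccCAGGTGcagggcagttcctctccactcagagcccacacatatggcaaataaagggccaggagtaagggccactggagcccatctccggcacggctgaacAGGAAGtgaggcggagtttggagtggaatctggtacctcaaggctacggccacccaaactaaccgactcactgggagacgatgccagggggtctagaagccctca
Cd22, chr7:30878979-30879278, minus strand: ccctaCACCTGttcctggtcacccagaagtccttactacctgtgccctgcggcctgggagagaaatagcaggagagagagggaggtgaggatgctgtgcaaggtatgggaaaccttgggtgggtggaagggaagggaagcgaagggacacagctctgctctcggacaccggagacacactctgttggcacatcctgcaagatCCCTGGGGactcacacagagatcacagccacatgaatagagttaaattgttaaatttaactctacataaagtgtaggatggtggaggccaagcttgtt
Fcer2a, first start, chr8:3694125-3694424, minus strand: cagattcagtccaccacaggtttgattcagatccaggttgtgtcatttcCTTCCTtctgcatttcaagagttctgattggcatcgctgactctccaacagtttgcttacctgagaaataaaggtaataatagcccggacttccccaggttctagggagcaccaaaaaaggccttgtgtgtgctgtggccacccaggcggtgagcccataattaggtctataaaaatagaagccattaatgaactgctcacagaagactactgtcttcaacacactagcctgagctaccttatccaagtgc
Fcer2a, second start, chr8:3690812-3691111, minus strand: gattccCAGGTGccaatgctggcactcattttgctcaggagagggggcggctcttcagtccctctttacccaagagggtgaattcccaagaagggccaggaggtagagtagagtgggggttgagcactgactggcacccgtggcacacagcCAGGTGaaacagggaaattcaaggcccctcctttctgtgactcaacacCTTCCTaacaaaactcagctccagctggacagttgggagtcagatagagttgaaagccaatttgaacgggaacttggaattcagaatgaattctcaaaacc
The Cd79a window held 1 E-box and 1 Ets core, and the Cd22 window 1 E-box and 1 EBF palindrome. The first Fcer2a window held 1 Ets core, whereas the second held 2 E-boxes and 1 Ets core. The third Fcer2a start, Pax5 and both Ebf1 starts held none of the 3, which says only that these letters are not in those windows.

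Total counts ran from 1944589 to 34151147 in Treg, 837050 to 14047347 in CD4, 15135 to 36919936 in mTEC, 1269529 to 16776303 in cTEC, 63887 to 894958 in iLN and 171619 to 19699330 in the cultures. The whole thymus table holds TPM, a level scaled to gene length and library total, from which the depth is unknown. Levels elsewhere are in CPM, counts scaled to library size with TMM factors, set once over the 46 sorted libraries, once over iLN and once over the cultures, so a level in iLN and a level in a sorted population are on different scales. Libraries under 300000 counts or 8000 detected genes were 1 mTEC, 1 cTEC, 2 iLN and 4 cultures. The shallowest, SOD1 mTEC d30 replicate 1, had 15135 counts, with 5 Ighm reads, 1 Fcer2a read, 1 Blk read and none for the other 6 genes. Defining genes of the sorted populations were checked. Foxp3, the Treg factor, stood at 33.5 to 265 CPM in Treg and 5.90 to 25.2 CPM in CD4 libraries, and Aire at 619 to 2039 CPM in mTEC and at most 38.0 CPM elsewhere. Psmb11, a proteasome subunit of cortical epithelium, stood at 10.02 to 1472 CPM in cTEC and at most 24.99 CPM elsewhere, so the lowest cTEC library, of SOD1 mice at d120, did not stand apart in it.

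All 9 genes were detected in every iLN library and every whole thymus library. In iLN the means were 867 ± 197 CPM for Ighm, 408 ± 169 for Cd79a, 251 ± 83.3 for Cd79b, 189 ± 119 for Cd22, 175 ± 46.5 for Ms4a1, 173 ± 56.6 for Fcer2a, 159 ± 110 for Pax5, 135 ± 53.7 for Ebf1 and 66.2 ± 27.7 for Blk (SD, n = 6, both genotypes). In whole thymus they were 845 ± 256 TPM for Ighm, 40.3 ± 2.45 for Cd79b, 21.4 ± 4.71 for Cd79a, 7.31 ± 1.76 for Blk, 6.37 ± 1.37 for Cd22, 6.14 ± 1.15 for Ms4a1, 5.19 ± 2.25 for Fcer2a, 3.40 ± 1.64 for Pax5 and 0.728 ± 0.287 for Ebf1 (SD, n = 6). Ighm made up a median of 42.7% of the 9 genes' summed level per base of exon in iLN, and 89.3% of their summed TPM in whole thymus. The gene lengths behind the deposited TPM are not given, so these 2 shares are not the same measure. In a bulk library fewer cells of a type and less RNA per cell cannot be told apart.

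**Figure D1:**
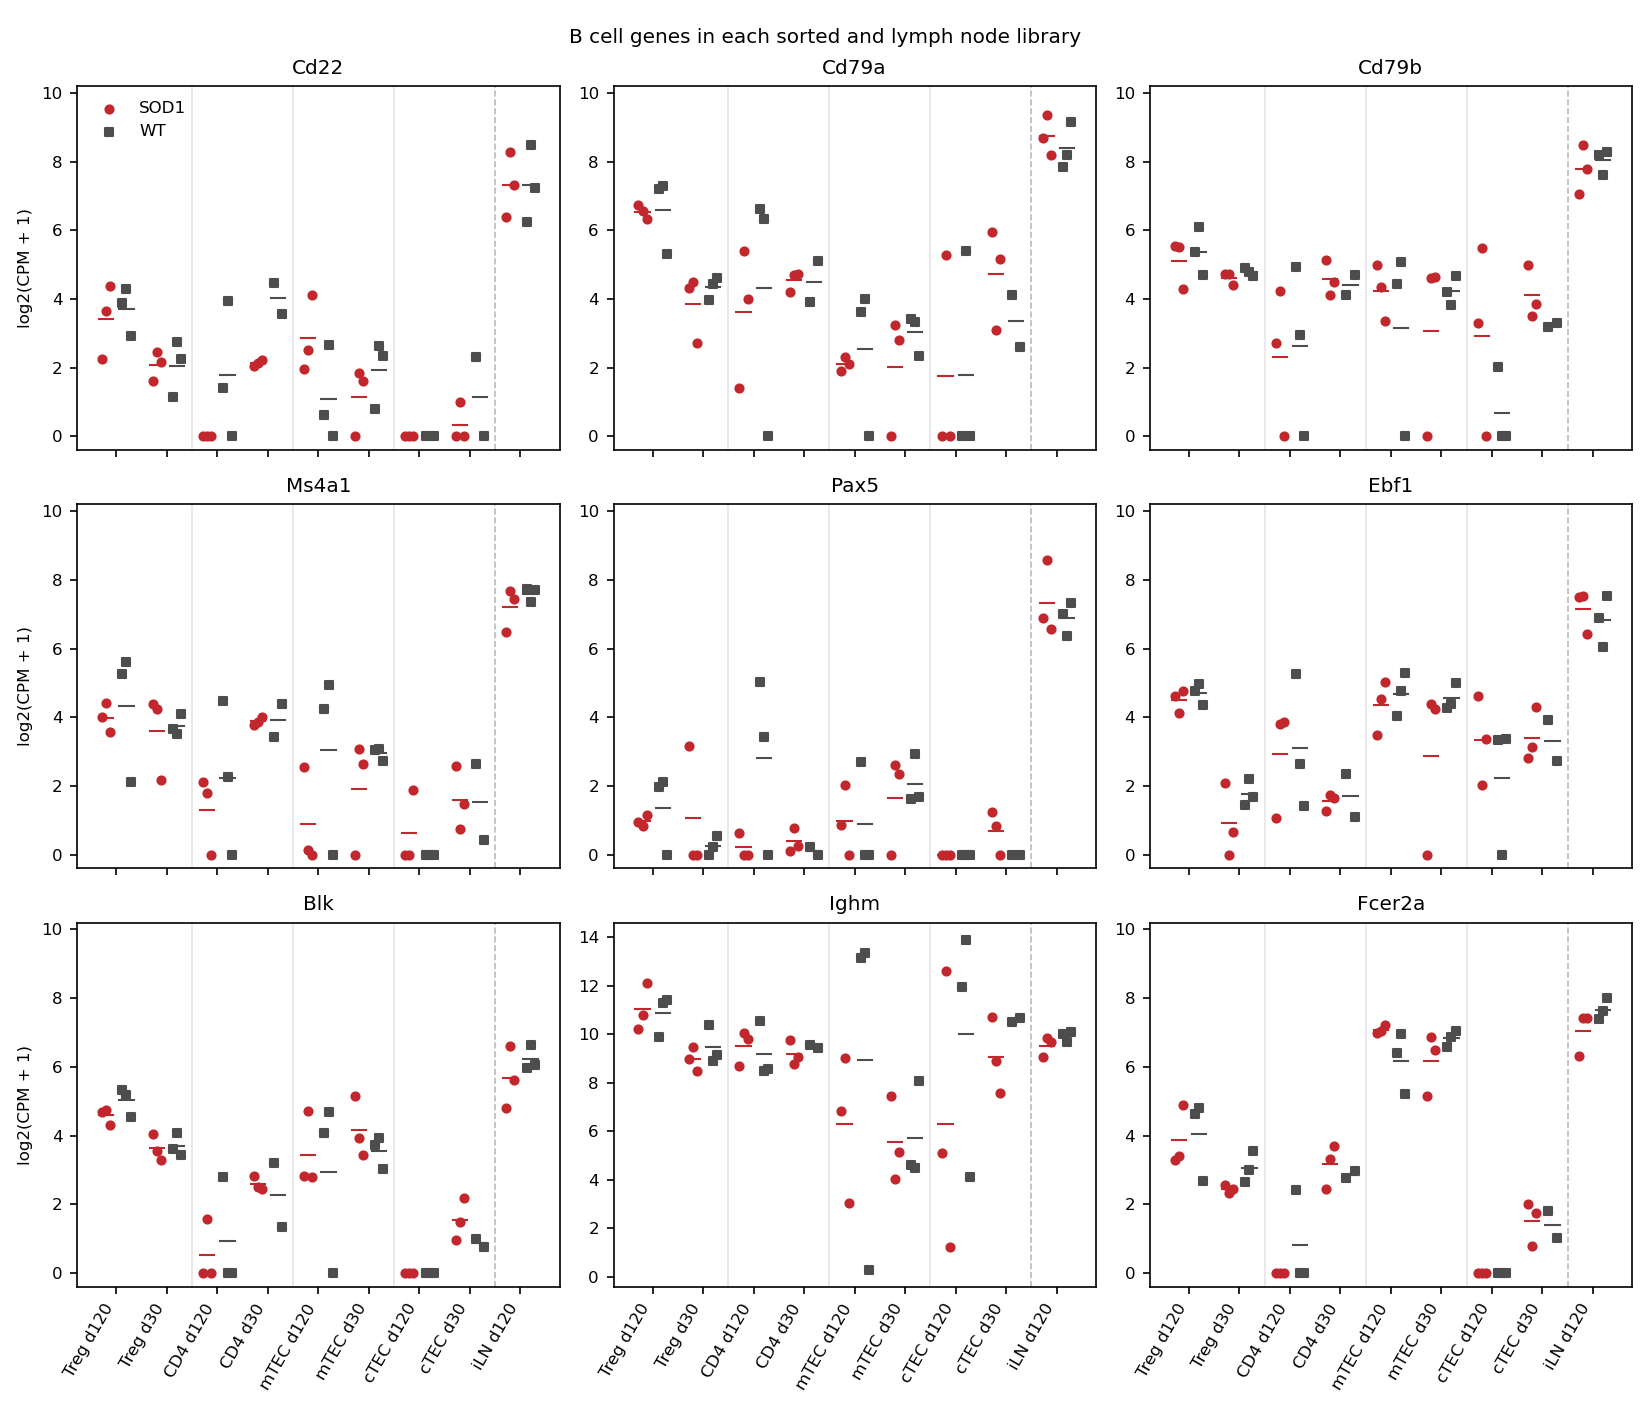
Level of each of the 9 genes in every sorted and iLN library, as log2(CPM + 1), with SOD1 (red circles) left of WT (grey squares) and d120 left of d30 within each population; short lines are means of the log values, and the dashed line sets off iLN, which was scaled on its own. Cd79a in Treg stands at 38.6 to 154 CPM at d120, against 5.63 to 23.4 CPM at d30, and Fcer2a stands far higher in mTEC than in cTEC.

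SOD1 and WT libraries were set against each other to ask whether the transgene goes with a different amount of B cell RNA. In whole thymus at d120 none of the 8 genes that passed the filter on low values was called between SOD1 and WT by limma with Benjamini-Hochberg adjustment, where 0.0831% of all genes tested were called; Ebf1, under the filter of a mean of 1 TPM, was not tested. Ighm stood at 640, 616 and 780 TPM in SOD1 thymus, against 1208, 1123 and 703 TPM in WT thymus. The WT library at 703 TPM lay within the SOD1 range, and the difference of -0.54 ± 0.21 on the log2(TPM + 1) scale (SE) had an unadjusted p of 0.0372 and an adjusted p of 0.999, the only one of the 8 under 0.05 before adjustment. The signalling chain Cd79a had 12.9, 26.3 and 24 TPM in SOD1 thymus and 23.2, 22.4 and 19.6 TPM in WT thymus, a log2 difference of -0.10 ± 0.26 (limma adjusted p = 0.999). Its partner Cd79b had 38.2, 38.1 and 44.3 TPM in SOD1 thymus and 42.3, 39.8 and 39.2 TPM in WT thymus. These sets of 3 overlapped. The kinase Blk had 7.20, 10.6 and 7.05 TPM in SOD1 thymus, each above the 6.75, 6.89 and 5.36 TPM of WT thymus, as 4.18% of all genes tested did, and its log2 difference of 0.33 ± 0.22 did not pass (limma adjusted p = 0.999).

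No gene of the lists of 22 further B cell genes and 13 plasma cell genes was called between genotypes in whole thymus, and those with the smallest p were mostly immunoglobulin genes. Igkc, the kappa light chain constant gene, averaged 1148 TPM in SOD1 thymus and 2169 TPM in WT thymus, with a log2 difference of -0.82 ± 0.33 (unadjusted p = 0.0408). Ighg1, an IgG heavy chain gene of switched cells, differed by -2.35 ± 0.55 (unadjusted p = 0.00377), Ighg2c by -1.94 (unadjusted p = 0.0254) and Ighg2b by -1.48 (unadjusted p = 0.0318). For each of these limma gave an adjusted p of 0.999, so none passed.

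**Figure D2:**
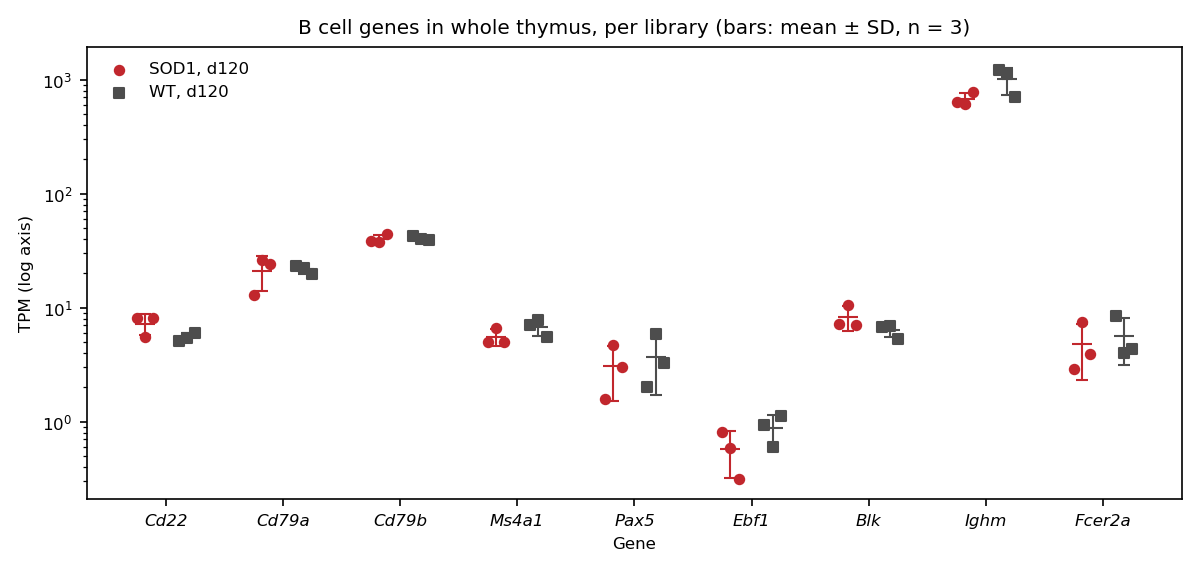
TPM of the 9 genes in whole thymus at d120 on a log axis, with the 3 SOD1 libraries left of the 3 WT libraries; points are libraries and bars are means ± SD (n = 3 each). The 2 genotypes overlap for Ighm and Cd79b, and for Blk the 3 SOD1 libraries lie above the 3 WT libraries.

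In iLN at d120 edgeR's quasi-likelihood test called none of the 9 genes, where it called 0.0574% of all genes tested. Cd79a had 415, 653 and 294 CPM in SOD1 nodes and 229, 293 and 566 CPM in WT nodes (log2 fold 0.30 ± 0.43, edgeR adjusted p = 0.989). Ighm had 529, 919 and 828 CPM in SOD1 nodes and 1029, 815 and 1083 CPM in WT nodes (log2 fold -0.37 ± 0.33, edgeR adjusted p = 0.975). The sign of the Cd79a fold rests on 1 library: without SOD1 replicate 2 it was -0.04. The IgE receptor gene Fcer2a had 78.9, 169 and 171 CPM in SOD1 nodes and 167, 196 and 254 CPM in WT nodes (log2 fold -0.59 ± 0.39, edgeR adjusted p = 0.97). Jchain, which joins secreted IgM and IgA, had a log2 fold of -1.31 ± 0.50 in SOD1 over WT nodes that did not pass (unadjusted p = 0.0244, edgeR adjusted p = 0.968).

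The sorted populations gave no genotype call either. All 9 genes passed the filter on low counts in mTEC, Treg and CD4, and 5 in cTEC. In cTEC, mTEC, Treg and CD4 at either day edgeR called none of the members that passed the filter, against 0.00684%, 0.00529%, 0.0135% and 0.00801% of all genes tested, the same at each day, and no difference between days in the genotype effect was called (0% of all genes). DESeq2 and limma voom called none of the members in these comparisons. Before adjustment 7 member tests between genotypes were under 0.05, and 2 of the difference between days, both for Pax5. Of these, 3 were in CD4 at d120, where Cd22 had 0 CPM in all 3 SOD1 libraries and 1.62, 14.2 and 0 CPM in WT libraries, and Pax5 had 0.551, 0 and 0 CPM in SOD1 libraries and 31.4, 9.72 and 0 CPM in WT libraries (-6.06 ± 1.80, unadjusted p = 0.00484, edgeR adjusted p = 0.72). Fcer2a was the third, with 0 CPM in all 3 SOD1 libraries and 4.33, 0 and 0 CPM in WT libraries. WT replicate 3 lay at 0 for each of the 3 genes, so the genotypes overlapped. The others were Blk in Treg at d120 (-0.62 ± 0.28, unadjusted p = 0.0431), Pax5 in Treg at d30 (3.99 ± 1.81, unadjusted p = 0.0467), Ighm in mTEC at d120 (-4.97 ± 1.94, unadjusted p = 0.0225) and Cd79b in cTEC at d120 (4.02 ± 1.79, unadjusted p = 0.0422). Without the filter on low counts edgeR did call Ighm in mTEC at d120 (-4.90 ± 0.79, adjusted p = 1.72e-05), and also a member in cTEC at d120. Genotypes lay apart at d30 for Fcer2a in Treg, with 3.99 to 4.85 CPM in SOD1 and 5.20 to 10.7 CPM in WT libraries, as for 9.86% of genes in that direction. So did Cd22 in CD4, with 3.16 to 3.70 CPM in SOD1 and 10.9 to 21.1 CPM in WT libraries (5.52% of genes), and Cd79b in cTEC, with 10.3 to 31 CPM in SOD1 and 8.16 to 8.89 CPM in WT libraries (8.97%).

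Most of the B cell genes were higher in Treg libraries at d120 than at d30. Of the 9, 6 were higher at d120 by edgeR's quasi-likelihood test over both genotypes and none was lower. Of all genes tested 29.9% were called, 16.1% higher and 13.8% lower. The median log2 fold of the 9 was 1.56, and that of all genes tested 0.01. Day goes with a different naming scheme of the libraries, and a batch of that kind cannot be told apart from age.

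Among the receptor genes, Cd79a stood at 106, 92.8 and 80.1 CPM in SOD1 and 146, 154 and 38.6 CPM in WT Treg libraries at d120, against 19.1, 21.3 and 5.63 CPM in SOD1 and 14.8, 20.8 and 23.4 CPM in WT libraries at d30. Every d120 library lay above every d30 library, and the log2 fold was 2.53 ± 0.35 (edgeR adjusted p = 0.000229). Ighm had 1174, 1757 and 4446 CPM in SOD1 and 937, 2524 and 2746 CPM in WT libraries at d120, against 497, 718 and 357 CPM in SOD1 and 1328, 477 and 570 CPM in WT libraries at d30 (log2 fold 1.84 ± 0.44, edgeR adjusted p = 0.00732). One WT d30 library, at 1328 CPM, reached into the d120 range. Cd79b had 18.6 to 67.1 CPM at d120 and 20.2 to 28.7 CPM at d30, and its fold of 0.63 ± 0.24 did not pass (edgeR adjusted p = 0.0681). It was called in 4 of 6 alternative settings.

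Of the surface receptor genes, Cd22 and Fcer2a were called and Ms4a1 was not; their folds were not tested against each other. Cd22 had 3.72, 11.5 and 19.7 CPM in SOD1 and 13.8, 18.7 and 6.64 CPM in WT libraries at d120, against 2.04, 4.44 and 3.5 CPM in SOD1 and 1.20, 5.73 and 3.79 CPM in WT libraries at d30 (log2 fold 1.89 ± 0.51, edgeR adjusted p = 0.0137). One d120 library, at 3.72 CPM, lay within the d30 range. Fcer2a had 8.69, 9.61 and 28.5 CPM in SOD1 and 23.7, 27.1 and 5.36 CPM in WT libraries at d120, against 4.85, 3.99 and 4.47 CPM in SOD1 and 5.20, 6.97 and 10.7 CPM in WT libraries at d30 (log2 fold 1.56 ± 0.45, edgeR adjusted p = 0.0202). With 1 library left out at a time the Fcer2a call held in 8 of 12 fits, and the adjusted p reached 0.0555. Ms4a1 had 3.32 to 47.3 CPM at d120 and 3.5 to 19.97 CPM at d30 (log2 fold 0.63 ± 0.51, edgeR adjusted p = 0.38).

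Inside the cell, the kinase gene Blk had 24.9, 25.7 and 19 CPM in SOD1 and 38.8, 35.6 and 22.5 CPM in WT libraries at d120, against 15.5, 10.6 and 8.74 CPM in SOD1 and 11.2, 15.8 and 9.80 CPM in WT libraries at d30 (log2 fold 1.17 ± 0.20, edgeR adjusted p = 0.000962). Ebf1 had 23.8, 16.3 and 26.3 CPM in SOD1 and 26.1, 30.4 and 19.4 CPM in WT libraries at d120, against 3.20, 0 and 0.583 CPM in SOD1 and 1.73, 3.56 and 2.23 CPM in WT libraries at d30. Its log2 fold of 3.59 ± 0.47 was the highest of the 9 (edgeR adjusted p = 0.000166). With Cd79a, Blk and Ebf1 were the 3 genes whose d120 libraries all lay above their d30 libraries, as 7.47% of all genes tested did. Pax5, which acts beside EBF1, lay at 0 to 3.34 CPM at d120 and 0 to 7.95 CPM at d30 (log2 fold 0.97 ± 1.14, edgeR adjusted p = 0.558).

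**Figure D3:**
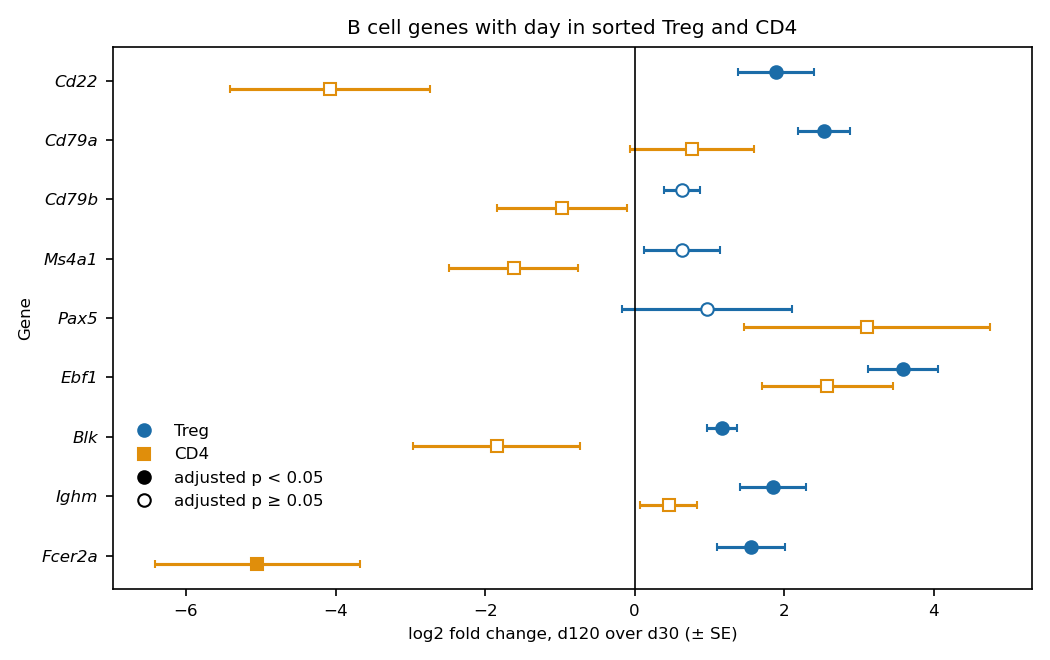
Log2 fold of d120 over d30 for the 9 genes in Treg and in CD4 libraries, with standard errors; filled points have an edgeR adjusted p under 0.05. In Treg 6 points are filled and all 9 lie above 0, whereas in CD4 the only filled point is Fcer2a, at -5.05.

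Genes of B cells outside the 9 were called in Treg too. Of 22 further B cell genes 21 were tested, 10 were higher and 1 was lower at d120, with a median log2 fold of 0.93. The higher ones included Tnfrsf13c, the BAFF receptor (2.53 ± 0.38), the scaffold gene Bank1 (2.22 ± 0.35) and the light chain constant genes Iglc2 (3.31 ± 0.50) and Igkc (2.75 ± 0.48), while Spib, a transcription factor of B cells and plasmacytoid dendritic cells, was lower (-1.53 ± 0.30). Of 13 plasma cell genes 12 were tested and 8 were higher, with a median of 1.67, among them Derl3 (2.44 ± 0.44), Jchain (2.08 ± 0.46), the BCMA gene Tnfrsf17 (3.93 ± 0.87) and Xbp1 (1.27 ± 0.11). Of 19 genes of B cell receptor signalling, many of them shared with T cells, 8 were higher and 5 were lower, with a median of -0.08. The 5 included Vav1 (-1.26 ± 0.15) and Ptpn6 (-0.92 ± 0.12), both widely used in blood cells.

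Some markers of other cells moved with day in the same Treg libraries, where 16.1% of all genes tested were higher and 13.8% were lower. The summed level of the plasma cell list was 4458 to 6805 CPM in SOD1 and 1880 to 4530 CPM in WT libraries at d120, against 692 to 1884 CPM in SOD1 and 852 to 1848 CPM in WT libraries at d30. That of the macrophage list, with 3 of 7 tested genes higher, was 253 to 492 CPM in SOD1 and 174 to 391 CPM in WT libraries at d120, against 114 to 284 CPM in SOD1 and 124 to 267 CPM in WT libraries at d30. The list of double-positive thymocytes, with 4 of 8 lower, summed to 1349 to 2003 CPM in SOD1 and 1319 to 1858 CPM in WT libraries at d120, against 2517 to 3257 CPM in SOD1 and 2971 to 3418 CPM in WT libraries at d30. The Treg markers themselves had 4 of 6 genes higher, with Foxp3 at 1.33 and Tnfrsf4 at 1.55 on the log2 scale, and 4 of 8 general T cell genes were lower. Of the gamma delta T cell list, which bears on Blk, 2 of 6 tested genes were lower and none was higher, with sums of 305 to 761 CPM in SOD1 and 536 to 679 CPM in WT libraries at d120, against 846 to 1123 CPM in SOD1 and 879 to 1160 CPM in WT libraries at d30. Lower genes numbered 2 of 7 for conventional dendritic cells, 2 of 6 tested for thymic epithelium, 1 of 4 for endothelium and 2 of 4 tested for germinal centre B cells, of which 1 more was higher, and plasmacytoid dendritic cells had 1 of 6 higher and 1 lower. No gene was called of the fibroblast, fat cell and pre-B cell lists, each with 1 gene tested. Their part in the change of the B cell genes was not tested.

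CD4 libraries were more scattered. In them 1 of the 9 genes was called with day, where 10.6% of all genes tested were called, 4.66% higher and 5.92% lower. Fcer2a had 0, 0 and 0 CPM in SOD1 and 4.33, 0 and 0 CPM in WT libraries at d120, against 4.49, 9.04 and 12.1 CPM in SOD1 and 5.83 and 6.77 CPM in WT libraries at d30. All d120 libraries lay below all d30 libraries, as for 12.5% of genes, and the log2 fold was -5.05 ± 1.37 (edgeR adjusted p = 0.0387). That call was lost in 8 of 11 fits with 1 library left out, at an adjusted p of up to 0.127, and with the replicate number as a block. Ebf1 had 1.10, 13 and 13.6 CPM in SOD1 and 37.3, 5.23 and 1.69 CPM in WT libraries at d120, against 1.41, 2.30 and 2.14 CPM in SOD1 and 4.09 and 1.13 CPM in WT libraries at d30 (log2 fold 2.58 ± 0.88, edgeR adjusted p = 0.0745). Cd79a at d120 spread over 1.65, 41.4 and 15.1 CPM in SOD1 and 96.9, 79.6 and 0 CPM in WT libraries, around the d30 values of 17.4, 24.98 and 25.3 CPM in SOD1 and 14.1 and 33.1 CPM in WT libraries. Of 21 further B cell genes tested, Igkc was higher (2.50 ± 0.72) and Btk, Cd180, Fcrla and Spib were lower.

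At d120 Treg libraries exceeded CD4 libraries in 3 of the 9 genes, where 5.25% of all genes tested were called and 4.24% were higher. Fcer2a averaged 17.2 CPM in Treg and 0.722 CPM in CD4 (log2 fold 6.76 ± 0.95, edgeR adjusted p = 1.95e-05), Blk 27.7 and 1.32 CPM (4.53 ± 0.94, edgeR adjusted p = 0.0024) and Cd22 12.3 and 2.64 CPM (5.35 ± 1.52, edgeR adjusted p = 0.0313), each over n = 6 and 6. For Blk the 6 Treg libraries at 19 to 38.8 CPM all lay above the CD4 libraries, of which 4 were at 0 and the highest was at 5.95 CPM, as 4.62% of all genes tested did. Fcer2a did not overlap either, with 5.36 to 28.5 CPM in Treg and at most 4.33 CPM in CD4 libraries. The Cd22 call was lost with median-of-ratios scaling (adjusted p = 0.0526), with the replicate number as a block (adjusted p = 0.0559) and in 7 of 12 fits with 1 library left out. That block gave 4 calls, Fcer2a, Blk, Cd79b (3.21 ± 0.86, edgeR adjusted p = 0.0187) and Cd79a (2.81 ± 0.87, edgeR adjusted p = 0.0444), although same-numbered libraries did not all deviate together at d120. At d30, where same-numbered Treg and CD4 libraries deviated together, 0 of the 9 genes were called with or without the replicate block and 0.856% of all genes were called without it. None of the 9 had an unadjusted p under 0.05 there, DESeq2 called 0 and limma voom called 1.

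Neither epithelial population had a member called between days. In mTEC 3.16% of genes tested were called (2.09% higher, 1.06% lower) and in cTEC 4.63% (1.61% higher, 3.02% lower). Ighm varied widely among epithelial libraries of one group. In mTEC it stood at 114, 511 and 7.24 CPM in SOD1 and 9161, 10384 and 0.235 CPM in WT libraries at d120, against 172, 15.6 and 34.4 CPM in SOD1 and 23.7, 21.7 and 270.5 CPM in WT libraries at d30. In cTEC it stood at 33.9, 6265 and 1.34 CPM in SOD1 and 3997, 15269 and 16.3 CPM in WT libraries at d120, against 1655, 470 and 188 CPM in SOD1 and 1434 and 1624 CPM in WT libraries at d30. High libraries occurred in both genotypes of cTEC and in WT mTEC. The mTEC fold of 4.33 ± 1.45 for d120 over d30 did not pass (unadjusted p = 0.0097, edgeR adjusted p = 0.134), but did without WT d120 replicate 3 (adjusted p = 0.0179). It also passed in 3 of 7 alternative settings. These were a dispersion per gene (adjusted p = 0.0358), limma voom (adjusted p = 0.0389) and edgeR without the filter on low counts (adjusted p = 3.38e-08). DESeq2 called 0 of the 9 in either population.

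The highest Ighm libraries differed in what else they carried. The mTEC library with 10384 CPM of Ighm had 15.02 CPM of Cd79a, 32.5 CPM of Cd79b, 29.6 CPM of Ms4a1 and 0 CPM of Pax5, its Ms4a1 being the highest of the 12 mTEC libraries. The cTEC library with 15269 CPM of Ighm had 40.8 CPM of Cd79a and 0 CPM of the other 7 genes. Summed plasma cell genes in mTEC at d120 were 696, 596 and 3271 CPM in SOD1 and 2314, 8895 and 512 CPM in WT libraries, and in cTEC at d120 357, 28738 and 12746 CPM in SOD1 and 7858, 23945 and 459 CPM in WT libraries. At d30 the sums were 275, 380 and 454 CPM in SOD1 and 337, 344 and 812 CPM in WT mTEC, and 45657, 2787 and 5094 CPM in SOD1 and 14395 and 2327 CPM in WT cTEC. The part of plasma cell RNA in these Ighm levels was not tested. With day in mTEC, edgeR called Igkc (3.8 ± 0.89), Iglc2 (3.54 ± 0.80) and Xbp1 (1.25 ± 0.22) higher and Spib lower (-1.24).

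At d120, Cd22, Pax5, Blk and Fcer2a were at 0 in all 6 cTEC libraries. Of these, Blk and Fcer2a had reads in all 5 cTEC libraries at d30, with 0.671 to 3.5 CPM of Blk and 0.729 to 3 CPM of Fcer2a. Against a floor of 3 counts over the d120 group they were at least 5.7-fold and 6.9-fold lower at d120, and both fell under the filter on low counts in this comparison and were not tested. The d120 libraries all lay below the d30 libraries in 11.9% of the genes tested. That share covers genes that passed the filter, and none was computed for genes as low as Blk and Fcer2a.

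Set against cTEC, mTEC had 5 of the 9 genes higher and none lower at d120, where 28.7% of all genes tested were called and 23.7% were higher. Against a floor of 3 counts over the cTEC group, in which all 6 libraries were at 0, Fcer2a was at least 389-fold, Blk at least 47.1-fold, Cd22 at least 18-fold and Pax5 at least 5.65-fold higher in mTEC (edgeR adjusted p in that order 1.23e-09, 3.69e-05, 0.00297 and 0.0272). The bounds of Cd22 and Pax5 rest on 1 library each. Cd22 had 2.88, 4.66 and 16.5 CPM in SOD1 and 0.544, 5.35 and 0 CPM in WT mTEC, and without the highest of these its bound was 9.73-fold. Pax5 had 0.824, 3.11 and 0 CPM in SOD1 and 5.44, 0 and 0 CPM in WT mTEC, and without the highest its bound was 2.85-fold. Ms4a1 was the fifth (log2 fold 5.51 ± 1.66, edgeR adjusted p = 0.0116). With 1 library left out the calls of Fcer2a, Blk and Cd22 held in all 12 fits. The Ms4a1 call was lost without SOD1 mTEC replicate 1 (adjusted p = 0.22), with limma voom (0.0517) and with the replicate number as a block (0.0777). The Pax5 call was lost without any 1 of SOD1 mTEC replicate 2, WT mTEC replicate 1 and WT cTEC replicate 3 (adjusted p up to 0.9999), with DESeq2 (0.0792), with limma voom (0.633) and without libraries of low depth (0.0526). At d30, 22.3% of all genes tested were called, 16.6% higher and 5.69% lower. There Fcer2a averaged 96.7 CPM in mTEC and 1.91 CPM in cTEC (log2 fold 5.77 ± 0.75, edgeR adjusted p = 3.61e-06), and Blk (3.28 ± 0.97, adjusted p = 0.0129) and Pax5 (5.15 ± 1.69, adjusted p = 0.0252) were higher in mTEC too. Ighm went the other way at d30, with 89.6 CPM in mTEC and 1074 CPM in cTEC (-4.12 ± 1.33, edgeR adjusted p = 0.0211), a call that held in 5 of 11 fits with 1 library left out. The count of 4 calls at d30 rests on both WT cTEC libraries: without replicate 2 there were 2 calls and without replicate 3 there was 1. The further B cell genes were 13 higher and 4 lower of 22 in mTEC at d120 and 4 and 4 at d30, with Cr2 at 7.85 and Igkc at -5.30 on the log2 scale at d30, and 7 of 13 plasma cell genes were lower in mTEC at d30. Ebf1 was not called between them: at d120 it had 10.16, 22.1 and 31.6 CPM in SOD1 and 15.3, 25.9 and 37.9 CPM in WT mTEC, against 23.3, 3.09 and 9.35 CPM in SOD1 and 9.06, 0 and 9.33 CPM in WT cTEC. Of 7 fibroblast genes, 4 were higher and 2 were lower in mTEC at d120; their part in the Ebf1 level was not tested.

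Among the sorted populations Fcer2a had its highest levels in mTEC. There it stood at 125, 131 and 147 CPM in SOD1 and 82.9, 122 and 36.0 CPM in WT libraries at d120, against 34.4, 115 and 88.3 CPM in SOD1 and 94.0, 116 and 132 CPM in WT libraries at d30. The 34.4 CPM rests on the single read of the shallowest library. SOD1 libraries all lay above WT libraries at d120, as for 4.76% of genes tested, but the log2 fold of 0.73 ± 0.40 did not pass (edgeR adjusted p = 0.743). No Treg, CD4 or cTEC library exceeded 28.5 CPM. Set against mTEC, Treg libraries were lower in Fcer2a at d120 (log2 fold -2.60 ± 0.55, edgeR adjusted p = 0.000209) and at d30 (log2 fold -4.10 ± 0.60, edgeR adjusted p = 1.91e-06). These comparisons called 2 and 3 of the 9 genes, and 50.4% (18.2% higher, 32.2% lower) and 45.5% (12.4% higher, 33.1% lower) of all genes tested. There Cd79a was higher in Treg at d120 (4.23 ± 1.05, edgeR adjusted p = 0.000903), Ighm was higher in Treg at d30 (3.37 ± 1.27, edgeR adjusted p = 0.0278; lost with DESeq2 and in 5 of 12 fits with 1 library left out, at an adjusted p of up to 0.0957) and Ebf1 was lower in Treg at d30 (-3.38 ± 0.76, edgeR adjusted p = 0.000408). At d120 Ebf1 averaged 23.7 CPM in Treg and 23.8 CPM in mTEC.

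Per base of exon, the ratio of Fcer2a to the sum of Cd79a and Cd79b had a median of 1.75 in mTEC at d120 (1.19 to 5.46) and 1.70 at d30 (1.38 to 2.44). It was 0.14 in iLN (0.0676 to 0.187), 0.07 in whole thymus, and 0.05 in Treg at d120 and 0.06 at d30. Whole thymus ratios in this paragraph use the deposited TPM, whose gene lengths are not given, so they are not the same measure as the others. No mTEC library fell within the iLN range. The ratio of Ighm to the same sum had a median of 1.09 in iLN (0.698 to 1.51), 12.24 in whole thymus, 9.30 in Treg at d120 and 9.85 at d30. In Treg the ranges at the 2 ages overlapped, 3.88 to 34.7 at d120 and 7.74 to 23.3 at d30. In mTEC it was 16.66 at d120, over a range of 0.441 to 220.8 in the 5 of 6 libraries with reads of Cd79a or Cd79b, and 0.75 at d30 (0.375 to 7.24, 5 of 6 libraries). In cTEC it was 174.03 at d120 over the 4 of 6 libraries that gave a ratio, which ran from 2.89 to 1004, and 20.09 at d30 (3 to 89.1). The ratio of Ebf1 to the same sum had a median of 0.0221 in Treg at d120 (0.0176 to 0.0454) and 0.0064 at d30 (0 to 0.0112), so it was higher in every d120 library, whereas iLN had a median of 0.029 (0.0198 to 0.0488).

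**Figure D4:**
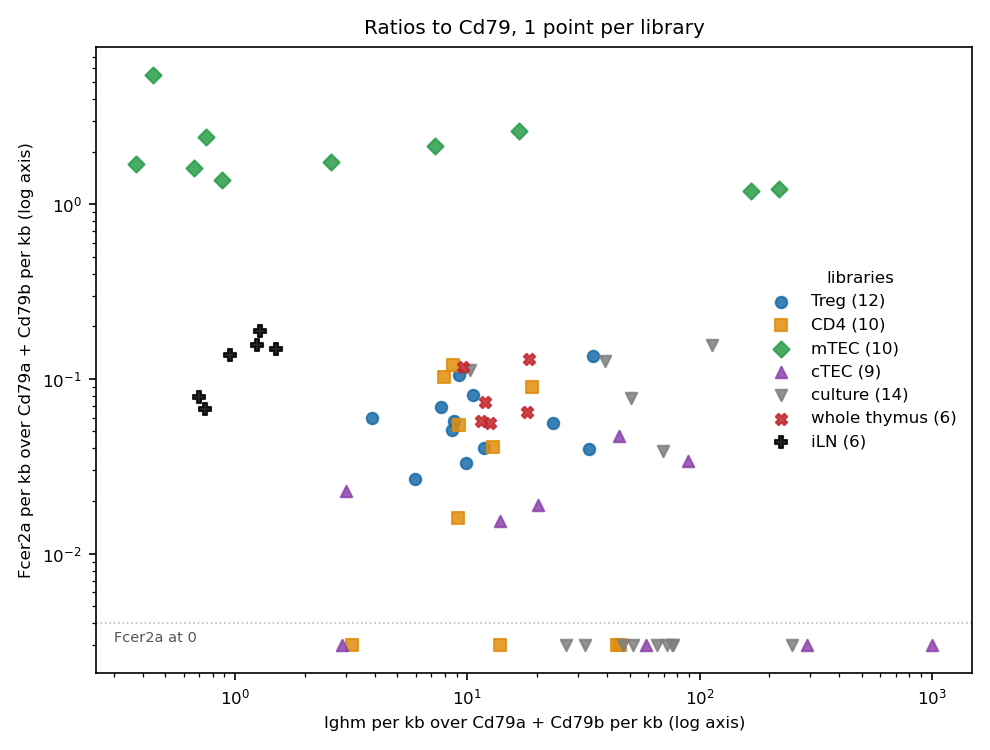
Fcer2a against Ighm, each per base of exon (deposited TPM for whole thymus) and over the sum of Cd79a and Cd79b, on log axes. Shown are the 67 of 76 libraries with reads of Cd79a or Cd79b, and those with no Fcer2a read are drawn below the dotted line. The mTEC libraries lie above all others in Fcer2a, with d120 and d30 medians of 1.75 and 1.70. In Ighm the iLN libraries lie at 0.698 to 1.51, toward the low end. Some mTEC libraries lie there too, down to 0.375 at d30 and 0.441 at d120.

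To see which genes shared these patterns, log2 CPM was correlated over the 46 sorted libraries with each of 18030 genes averaging at least 1 CPM; libraries share depth, population and day, so the values are a description. The mean profile of the 9 genes was most like, among others, Nphp4 (Pearson r = 0.79), Rasal1 (0.78), Sdcbp2 (0.77), Fcmr (0.77), Fcrla (0.76) and Tnfrsf13c (0.76), of which Fcmr, Fcrla and Tnfrsf13c stood in the list of further B cell genes. Ebf1 was most like Atp2b4 (0.68) and Blk most like Dmbt1 (0.80). The profile of Fcer2a, singled out after its values were seen, was most like Ccr4 (0.91), Cr2 (0.90), Dlk1 (0.88) and Aire (0.87). Aire, the regulator that lets mTEC transcribe genes of other tissues, averaged 1162 CPM in mTEC at d120 and 918 CPM at d30, the chemokine receptor gene Ccr4 33.3 and 56.4 CPM, and the complement receptor gene Cr2, itself a B cell gene, 22.5 and 33.0 CPM.

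**Figure D5:**
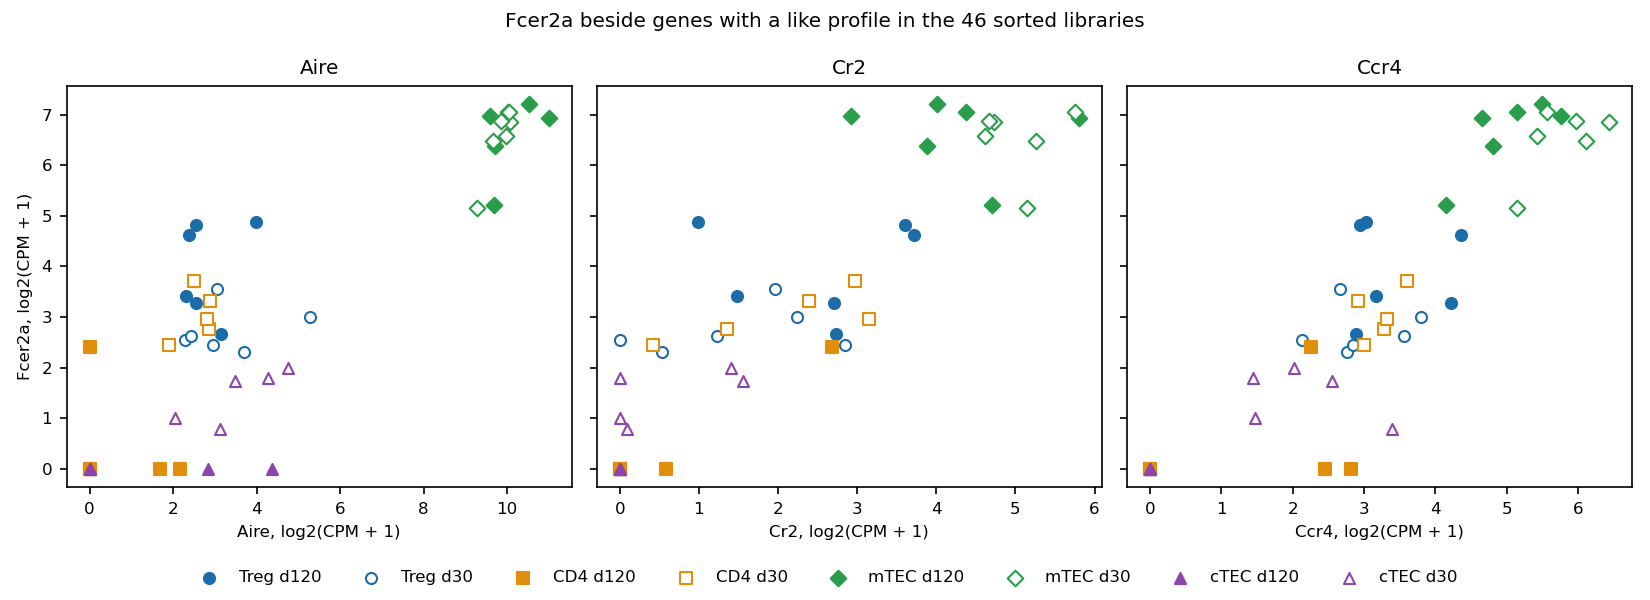
Log2(CPM + 1) of Fcer2a against Aire, Cr2 and Ccr4 in the 46 sorted libraries, coloured by population, with filled points for d120 and open points for d30. The mTEC libraries form the upper end in each panel, and Pearson r is 0.87 with Aire, 0.90 with Cr2 and 0.91 with Ccr4.

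In the Treg cultures the listed genes were low apart from Ighm. Which cells its reads came from was not tested. Cd79a lay between 0 and 11.8 CPM over the 18 culture libraries, with means of 2.34 CPM at T0, 0.122 CPM at T2 and 0.137 CPM at T20 (n = 6 each, both genotypes). Ighm had 294, 292 and 271 CPM in SOD1 and 303, 383 and 331 CPM in WT cultures at T0. It had 94.0, 103 and 95.6 CPM in SOD1 and 112, 61.9 and 146 CPM in WT cultures at T2, and 140, 121 and 112 CPM in SOD1 and 147, 63.5 and 149 CPM in WT cultures at T20. The T0 libraries, at 271 to 383 CPM, all lay above the T2 and T20 libraries, the highest of which had 149 CPM; no test was run on the cultures. Pax5 stood at 2.68, 20.4 and 8.55 CPM in SOD1 and 0, 6.24 and 1.96 CPM in WT cultures at T0, counts of 0 to 35 reads. The per-length ratio of Ighm to Cd79a and Cd79b had medians of 70.91 at T0, 62.24 at T2 and 48.76 at T20.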

How the data were processed

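Libraries were made from total RNA with the SMARTseq v4 low input kit, per the labels' protocols. The sorted-cell table and the table of nodes and cultures hold whole-number read counts per gene as the authors deposited them, and the whole thymus table holds TPM values as deposited, since its columns each sum to the same total. The submitters' processing notes name mm10 and DESeq2 without a role; which aligner, counter and strand setting were used is not given in the sources used here. The d30 column names of WT libraries begin with SOD1, and groups follow the titles and genotype labels.

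Counts were fitted with edgeR 4.0.16 in R 4.3.3: filterByExpr, TMM, glmQLFit with trended dispersion and glmQLFTest, with Benjamini-Hochberg adjustment over all genes tested and a threshold of 0.05. The design named a dispersion per gene as the main setting. In simulated counts that setting made more false calls than the threshold allows, at 11.5% to 24.3% of its calls. The trended dispersion was therefore made the main one and the other the alternative, after results of both had been seen. The trended setting also passed the threshold, at 5.48% to 7.5%. It made fewer true calls over 4 draws, 37 against 156 in mTEC at d120, 462 against 539 in Treg at d120 and 397 against 510 in iLN. The changes put into the simulated counts were 4-fold, up or down, and in mTEC both settings missed most of them. A genotype comparison without a call can therefore miss true changes, most of all in mTEC. Genotype and day were fitted within a population with all its groups. Populations were compared within a day, in a fit over the 46 sorted libraries of both days, which shared the filter, the scaling and the estimate of the spread. Whole thymus was tested with limma 3.58.1 with a trend on log2(TPM + 1) over genes averaging at least 1 TPM, because count tests planned for it need counts. Those folds understate the change of low genes. A gene at 0 throughout a group was set against a floor of 3 counts over that group, which covers counting error only. Gene positions and exon lengths were taken from GENCODE vM21, which matched 55094 of 55487 identifiers. Alternatives were DESeq2 1.42.0, limma voom with quality weights, other scalings, filters, pseudocounts and dispersions, leaving out libraries of low depth, a replicate block, the d120 library set (by column number) as a covariate and leaving out each library.

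Members and gene lists (further B cell genes, B cell receptor signalling, pre-B, germinal centre and plasma cells, plasmacytoid and conventional dendritic cells, macrophages, gamma delta T cells, double-positive thymocytes, Treg, T cells, thymic epithelium, fibroblasts, fat cells and endothelium) were chosen with earlier results of these data known. From each list up to 4 genes with the smallest p were named, beside genes most like the members' mean, Ebf1 and Blk; Fcer2a's likeness, the markers of the sorted populations, Igkc and Spib in Treg and Cd180 in CD4 were named after their values were seen. One gene that this rule names is not reported here. Same-numbered libraries of different genotype or day mostly did not deviate together. Of those pairs only SOD1 and WT cTEC d30 replicate 3 passed a correlation of 0.1, at 0.270, against -0.0256 for replicate 2. Same-numbered Treg and CD4 libraries deviated together at d30. Their deviations had correlations of 0.135 to 0.230 in all 5 pairs, so those numbers were taken to pair them. At d120 5 of 6 Treg and CD4 pairs passed 0.1, at correlations of up to 0.140, and the numbers were not taken to pair them. These ranges overlap, and differently numbered libraries were not correlated for comparison. With only 2 WT CD4 libraries at d30, the WT pairs there are not independent. Whether the numbers pair libraries is therefore not settled at either day. Tables and figures were made with Python 3.11.15, pandas 2.3.3 and matplotlib 3.10.9.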

Additional observations from a re-analysis of the deposited data

Results flagged for a closer look

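Blk went opposite ways with day in Treg and cTEC libraries. It averaged 27.7 CPM in Treg at d120 and 11.9 CPM at d30, with every d120 library higher, whereas in cTEC it was at 0 in all 6 d120 libraries and averaged 1.58 CPM at d30, with every d120 library lower. The difference between the populations was not tested, since Blk fell under the filter on low counts in cTEC. There it had only 0.671 to 3.5 CPM at d30. The cTEC libraries were also shallower at d120, with 1269529 to 3083181 counts against 4575299 to 16776303 at d30. In cTEC 11.9% of genes tested had every d120 library lower, and 1.87% had every d120 library higher. These shares cover genes that passed the filter, so they do not cover genes as low as Blk.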

How the results depend on the processing

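The number of members called in each of 24 comparisons was recomputed 166 times under settings other than a left-out library, and stayed within 1.5 times of that reported in 151. With 1 library left out it did in 206 of 220. Of 41 results of single genes, 251 of 275 values under other settings kept their direction and their side of the threshold (14 gained a call, 9 lost one and 1 changed sign), and 371 of 417 did with 1 library left out (6 gained, 38 lost and 2 changed sign). Without the filter on low counts members called came to 1 for SOD1 against WT at d120 in cTEC and 1 in mTEC (0 in each as reported), 2 for d120 against d30 in cTEC (0), 1 in mTEC (0) and 2 in CD4 (1), and 4 for Treg against mTEC at d120 (2). A dispersion per gene gave 1 member for d120 against d30 in mTEC and 3 in CD4, and DESeq2 gave 3 in CD4. Limma voom gave 1 with day in mTEC, 4 with day in CD4, 1 for Treg against CD4 at d30 (0), 7 at d120 (3) and 7 for mTEC against cTEC at d30 (4). With the replicate number as a block, 0 members were called with day in CD4, 6 with day in Treg, 4 for Treg against CD4 at d120 and 3 for Treg against mTEC at d120. With 1 library left out, members called ranged over 0 to 1 with day in mTEC, 1 only without WT d120 replicate 3, over 0 to 2 with day in CD4, and over 1 to 5 for mTEC against cTEC at d30. The genotype difference of Cd79a changed sign in iLN, to -0.16 without libraries of low depth and -0.0397 without SOD1 replicate 2 (0.843 at the other end of the left-out range), and in whole thymus, to 0.205 without SOD1 replicate 1 (-0.283 at the other end). The cause of these changes was not tested. Adding the d120 library set (by column number) as a covariate was run for SOD1 against WT at d120 in the 4 sorted populations, where no member was called with or without it. Of same-numbered Treg and CD4 libraries at d120 not all pairs deviated together (correlations 0.0574 to 0.140), so the block there is no pairing from the design.

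Counts over all genes moved more. For d120 against d30 they were 677 in cTEC, with 203 to 1919 over other settings and 80 to 1805 with 1 library left out, 597 in mTEC (333 to 1591, and 224 to 1049) and 1321 in CD4 (1258 to 2788, and 156 to 1898 with 1 library left out). For Treg against CD4 they were 186 at d30 (226 to 2856, and 263 with the replicate block, and 63 to 160 with 1 library left out) and 1140 at d120 (918 to 7690, and 772 to 1061). For mTEC against cTEC they were 4852 at d30 (3524 to 10142, and 1429 to 4634 with 1 library left out) and 6231 at d120 (4248 to 6623, and 5171 to 6613), and for Treg against mTEC 9887 at d30 (8387 to 15377, and 8435 to 9663). Between genotypes they were 3 in iLN (1 to 40, and 1 to 2 with 1 library left out), 12 in whole thymus (9 to 16, and 10 to 18), and 0 to 222 in the sorted populations. DESeq2, median-of-ratios scaling and voom were not run for whole thymus, whose table holds TPM. At 63887 counts in the shallowest node and 15135 in the shallowest mTEC library, low members could not be measured there.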
